A study of Mus musculus with 12 samples.

Results

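Open chromatin was described at the loci of 10 transcription factor genes of the neural plate, Sox1, Sox2, Sox11, Pax2, Pax6, Six3, Hesx1, Zic1, Zic2 and Otx2. A peak was counted for a gene when that gene was the nearest protein-coding gene to the midpoint of the peak, within 100 kb and with a distance of 0 inside the gene (RefSeq, mouse build mm10). The rule gave 244 peaks of 260693 in the 6 deposited peak lists. Joined where they touched or overlapped, these peaks made 98 open regions of 99068 in the series.

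The neural plate is the part of the ectoderm that folds into the brain and spinal cord. Sox1 and Sox2 are HMG-box factors of neural progenitors, and Sox11 is an HMG-box factor of a related group that is active as neurons form. Pax2 and Pax6 are paired-box factors of the midbrain-hindbrain boundary and the eye, among other places. Six3 and Hesx1 are homeobox factors of the anterior neural plate, and Otx2 is a homeobox factor of the forebrain and midbrain that is also active in the epiblast, the visceral endoderm and the anterior axial mesendoderm. Zic1 and Zic2 are zinc finger factors of the neural plate and its borders. FoxA2, the factor on which the cells were sorted, is a forkhead protein of the endoderm, node, notochord and floor plate.

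ATAC-seq, in which a transposase cuts and tags open DNA, was run on cells from E7.5 mouse embryos (embryonic day 7.5) after removal of the extraembryonic part. The embryos were homozygous for a FoxA2 knock-in allele that ends in the red fluorescent protein tagRFP and were kept on a mixed C57Bl6/J x CD-1 background. The allele was FoxA2-WT-tagRFP (here WT) or FoxA2-∆Hx-tagRFP (here dHx), which lacks 10 amino acids of an alpha helix. Cells of each genotype were sorted into High RFP (above the signal of heterozygous cells), Middle RFP (up to that signal) and Negative. Every group, the WT groups included, carried the tag on both Foxa2 alleles. About 10 embryos, not sexed, were pooled for a sort, and a library was made from 2000 to 5000 cells. The 12 samples formed 6 groups of 2, and the files used here hold 1 peak list per group. No value per sample stood behind any difference below, so no difference between lists was tested. The intervals are Clopper-Pearson 95% intervals that cover counting error alone.

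The lists held between 37129 (dHx High) and 50424 (dHx Negative) peaks, and the sources used here state no read depth. A longer list can hold weaker peaks. Peak strength is therefore given as a percentile, the percent of the peaks of the same list with a lower score (ties at their mean rank), and never as a score compared between lists. Fixed lists of marker loci, chosen with earlier results of these data known, were counted to describe the sorted groups. They are not an independent check of the sort labels. The first list includes Foxa2 itself, with 16 to 20 peaks in the RFP-positive lists and 11 and 15 in WT and dHx Negative. Loci of 16 endoderm and node genes held 17.2 to 23.3 peaks per 10000 in the 4 RFP-positive lists and 11.9 in each Negative list. Loci of 12 mesoderm genes held 4.31 to 8.08 peaks per 10000 in the RFP-positive lists and 10.5 to 10.6 in the Negative lists. Open chromatin is not expression, and in such pooled cells a smaller share of cells with an open region cannot be told apart from a less open region in each cell.

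The sequences before the outermost start sites of 4 members are shown because these promoters range from open in all 6 lists to open in none. Each run holds the 250 bases before the start in the direction of transcription (RefSeq, GRCm38.p6), and capitals mark CpG dinucleotides. The Sox1 bases (chr8:12395269-12395518, plus strand) lay under a peak in both Negative lists and in no RFP-positive list. The Sox2 bases (chr3:34649745-34649994, plus strand) were overlapped by a peak in the 3 dHx lists and in WT Negative. The Sox11 bases (chr12:27342719-27342968, minus strand) had a peak in all 6 lists, and the Otx2 bases (chr14:48667645-48667894, minus strand) in none.
Sox1: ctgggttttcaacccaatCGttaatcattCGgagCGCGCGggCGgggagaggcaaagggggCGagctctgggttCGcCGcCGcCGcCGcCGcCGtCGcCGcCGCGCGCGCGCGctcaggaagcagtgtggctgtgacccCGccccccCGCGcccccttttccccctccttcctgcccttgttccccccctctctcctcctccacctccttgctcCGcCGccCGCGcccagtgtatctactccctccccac
Sox2: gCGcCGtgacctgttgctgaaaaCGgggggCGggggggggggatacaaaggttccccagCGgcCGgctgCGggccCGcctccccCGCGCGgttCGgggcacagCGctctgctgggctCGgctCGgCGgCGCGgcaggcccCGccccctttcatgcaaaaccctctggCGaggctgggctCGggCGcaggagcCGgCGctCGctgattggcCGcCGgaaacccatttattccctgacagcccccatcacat
Sox11: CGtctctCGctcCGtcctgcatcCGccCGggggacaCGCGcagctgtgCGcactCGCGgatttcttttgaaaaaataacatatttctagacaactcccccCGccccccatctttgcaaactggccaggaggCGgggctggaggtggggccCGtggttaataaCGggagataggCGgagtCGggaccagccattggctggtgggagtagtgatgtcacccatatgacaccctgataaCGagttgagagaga
Otx2: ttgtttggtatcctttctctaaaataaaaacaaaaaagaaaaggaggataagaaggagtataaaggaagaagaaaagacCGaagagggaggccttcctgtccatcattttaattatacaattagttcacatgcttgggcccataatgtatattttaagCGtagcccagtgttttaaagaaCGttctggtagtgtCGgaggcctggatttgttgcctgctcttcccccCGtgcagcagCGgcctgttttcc

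Of these runs, that of Sox1 held 29 CpG dinucleotides with a GC content of 71.2%, that of Sox2 27 (72.0%), that of Sox11 17 (58.0%) and that of Otx2 6 (42.0%). The open run of Sox11 thus had fewer CpGs than those of Sox1 and Sox2, and the Otx2 run had the fewest.

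All 10 loci held a peak in at least 4 lists. Together they held 47, 29 and 45 peaks in the High, Middle and Negative lists of WT, and 40, 35 and 48 in those of dHx. Per 10000 peaks of a list this was 10.3 (7.56 to 13.7), 5.95 (3.98 to 8.54), 11.4 (8.30 to 15.2), 10.8 (7.70 to 14.7), 8.95 (6.23 to 12.4) and 9.52 (7.02 to 12.6). WT Middle had the longest WT list and the fewest member peaks, and in both genotypes the Middle list was the lowest of the 3 levels. Most member peaks scored below the median of their list. Their median percentile ran from 25.7 in dHx Negative to 39.8 in WT Negative, and between 15.6% (WT Negative) and 31.4% (dHx Middle) of them scored above the median of their list.

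**Figure D1:**
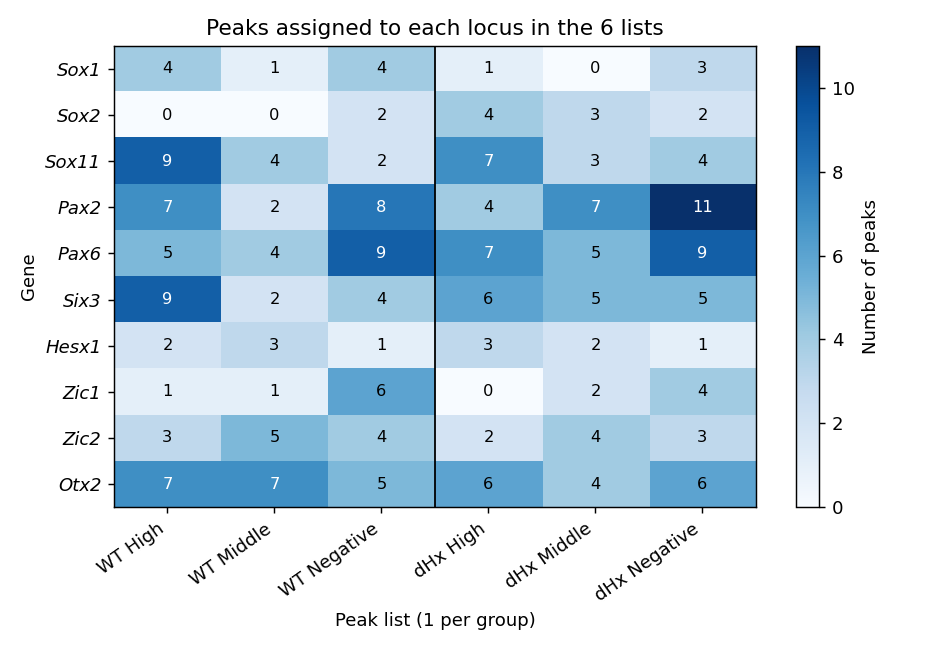
Number of peaks assigned to each gene (rows) in each of the 6 peak lists (columns; the line separates WT from dHx). Sox2 has 0 peaks in WT High and WT Middle, Sox11 has 9 in WT High and 2 in WT Negative, and Zic1 holds 6 peaks in WT Negative against 1 in WT High.

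The 98 regions were 192 to 2433 bases long, with a median of 402 bases against 450 for all regions. Of them 38 overlapped the body of their gene and 21 lay more than 50 kb away. Exons, introns and UTRs were not used here. Regions with a peak in all 6 lists numbered 5 (5.10%, 1.68 to 11.5), while 13.6% of all regions of the series were of that kind. At 45 other neural plate genes, described below, they numbered 40 of 378 (10.6%), which the members' interval holds. Taking every region within 100 kb of a member, whichever gene was nearest, gave 17 of 156. In at least 4 lists were 28 (28.6%, against 27.8% of all regions), and in 1 list alone 40 (40.8%, against 45.2%). Regions with peaks in RFP-positive lists of both genotypes and in no Negative list numbered 10 (10.2%, against 10.5%), of which 4 belonged to Otx2. Both Negative lists and no RFP-positive list held 7 (7.14%, 2.92 to 14.2, against 2.78%), with 2 each at Sox1, Pax6 and Zic1 and 1 at Pax2. The Negative pattern was thus more frequent among the members than in the series, with an interval that starts just above the series' value. That interval treats regions of 1 gene as independent, and this was 1 of several patterns counted. At the same 45 other genes, 15 of 378 regions had the Negative pattern (3.97%), which the members' interval holds. In 1 region each at Sox1, Pax2 and Zic1, the dHx Negative peak had the lowest score of its list (percentile 4.74). Regions of 2 or 3 WT lists and no dHx list numbered 2 (2.99% of all regions), at Pax2 and Zic2, and regions of 2 or 3 dHx lists and no WT list also 2 (2.40%), at Sox2 and Hesx1. No member region was present in the 3 WT lists and absent from the 3 dHx lists (0.344% of all regions), and none had the opposite pattern (0.233%).

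**Figure D2:**
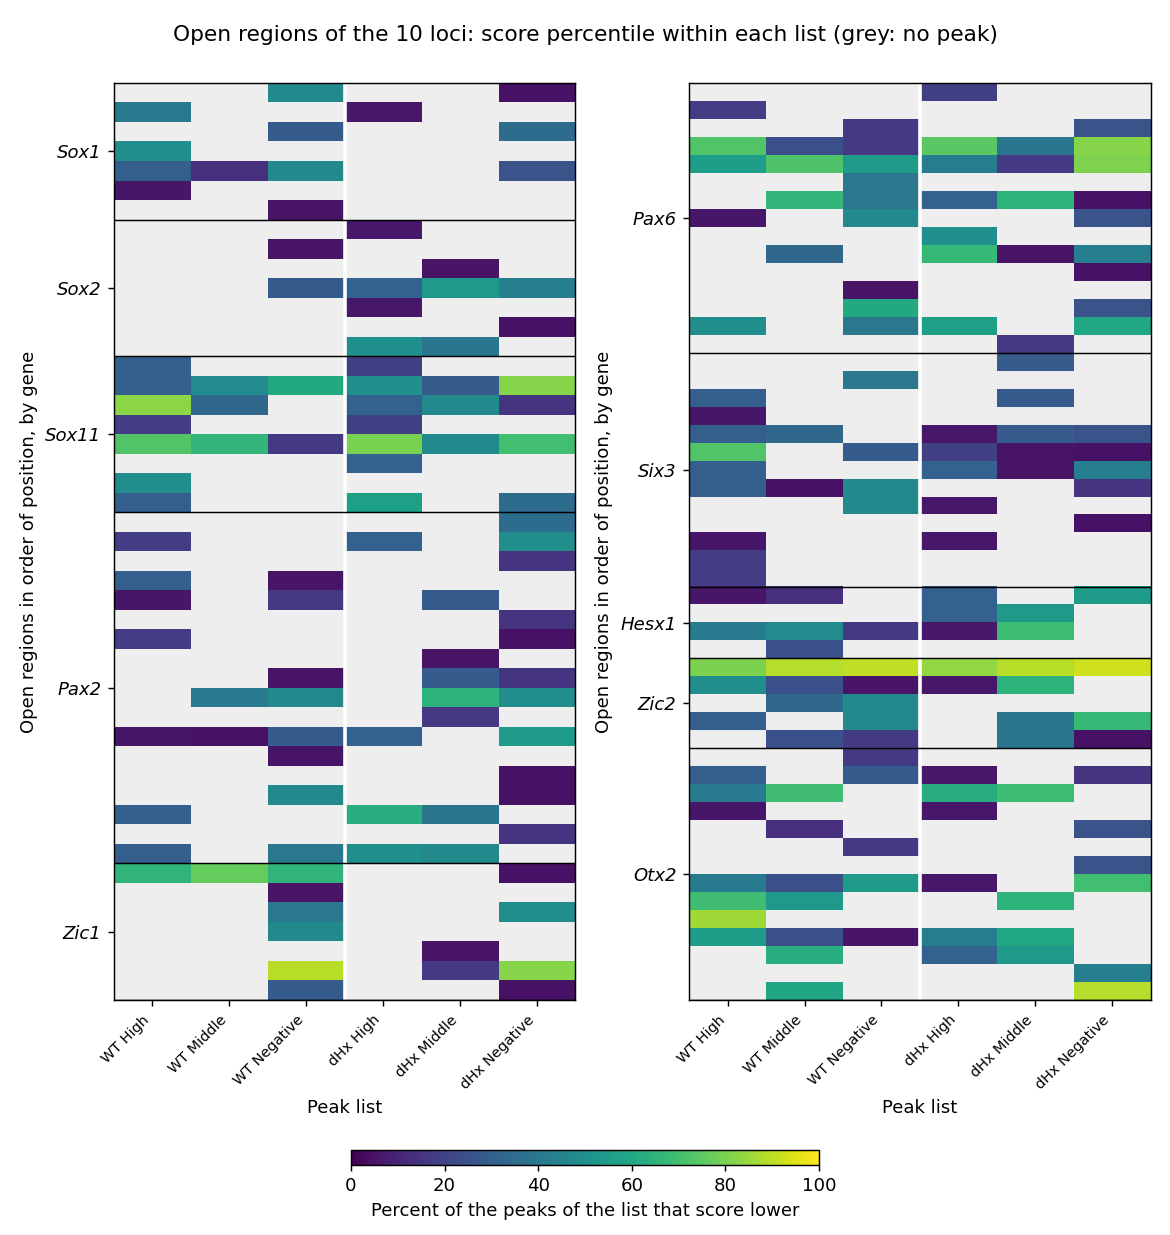
Each row is 1 of the 98 open regions, grouped by gene, each column a peak list, and the colour is the percentile of the score within the list (grey means no peak). The first Zic2 row is bright in all 6 columns, and Otx2 has rows that are filled in the RFP-positive columns and grey in both Negative columns.

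Sox1, a marker of committed neural cells, had 4, 1 and 4 peaks in WT High, Middle and Negative and 1, 0 and 3 in the dHx lists, in 7 regions. The region over its start (chr8:12395161-12395564) had a peak in WT Negative (percentile 47.9) and in dHx Negative (4.74). A second region of the Negative lists lay 30.6 kb downstream (chr8:12430154-12430527, percentile 29.2 in WT and 35.3 in dHx). The most shared region lay 46.3 kb downstream (chr8:12445901-12446272), with peaks in all WT lists and in dHx Negative at percentiles of 14.0 to 47.9. At 1.36 kb downstream, chr8:12400917-12401465 was open in WT High (40.9) and dHx High (6.29) and in no other list. The other 3 regions were in 1 list each, 2 in WT High (39.7 and 54.8 kb downstream, the nearer at percentile 49.0) and 1 in WT Negative. No Sox1 region was found in dHx lists alone.

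Sox2, which also maintains the pluripotent epiblast, had no peak within 100 kb in WT High or Middle and 2 in WT Negative, but 4, 3 and 2 in dHx High, Middle and Negative, in 7 regions. No other protein-coding gene lies within 100 kb of Sox2, so the assignment took no peak away from it. The region over the gene's start (chr3:34649504-34650344) was open in WT Negative (percentile 29.2), dHx High (31.5), dHx Middle (54.2) and dHx Negative (43.0). Of the 4 RFP-positive lists, those of dHx had this region and those of WT lacked it. A region 95.1 kb downstream (chr3:34747511-34748031) had peaks in dHx High (50.3) and dHx Middle (39.1) alone. The other 5 regions were in 1 list each and weak, at percentiles of 4.74 to 6.29, with 2 in dHx High (1 of them inside the gene) and 1 each in dHx Middle, dHx Negative and WT Negative (chr3:34637106-34637309).

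Sox11 had 9, 4 and 2 peaks in WT High, Middle and Negative and 7, 3 and 4 in the dHx lists, in 8 regions. In both genotypes High had the most. Its widest region covered the start site (chr12:27342083-27343772) and was open in all 6 lists, at percentiles of 72.9, 66.2 and 17.0 in WT High, Middle and Negative and 79.7, 47.4 and 69.8 in the dHx lists in that order. The region at 21.9 kb downstream (chr12:27311599-27312385) was also open in all 6 lists, with its highest percentile in dHx Negative (81.9) and lowest in dHx Middle (28.7). The region 14.6 kb downstream (chr12:27318994-27319637) was in all lists except WT Negative, at 82.5 in WT High and 14.9 to 47.4 in the rest. Regions 23.2 kb downstream (chr12:27310184-27311082) and inside the gene (chr12:27341162-27341569) had peaks in both High lists and nowhere else, at percentiles of 18.0 to 30.2. The far upstream region chr12:27420067-27420625 (77.3 kb) was in both High lists and dHx Negative. In 1 list each were chr12:27419220-27419528 (WT High, percentile 49.0) and chr12:27394159-27394492 (dHx High, 31.5).

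Pax2, the longest member at 91669 bases, had 7, 2 and 8 peaks in WT High, Middle and Negative and 4, 7 and 11 in the dHx lists, in 18 regions. None of the regions was in all 6 lists and 8 were in 1 list. The region over the start site farthest downstream in the RefSeq table (chr19:44756178-44757185) was in all lists except dHx Middle, at percentiles from 4.49 in WT Middle to 54.8 in dHx Negative. Near it, chr19:44750350-44751169 was open in both Middle and both Negative lists (41.6 to 64.8) and in neither High list. By contrast chr19:44824698-44825583, inside the gene, was open in WT High (30.2), dHx High (62.3) and dHx Middle (39.1) and in no Negative list. At the far end of the gene, chr19:44835837-44836858 was in both High lists, WT Negative and dHx Middle (30.2 to 50.3). The region chr19:44808776-44809153 was in both Negative lists (47.9 in WT, 4.74 in dHx) and no other. Upstream, chr19:44683896-44684805 was in WT High and WT Negative and in no dHx list, at percentiles of 30.2 and 5.47. The dHx Negative list alone held 5 further Pax2 regions, of which chr19:44669584-44669853 was the strongest (35.3). The other 7 regions were in 1 to 3 lists each, and the strongest peak in them was that of dHx Negative in chr19:44672036-44672418 (49.4).

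Pax6 had 5, 4 and 9 peaks in WT High, Middle and Negative and 7, 5 and 9 in the dHx lists, in 15 regions, so in both genotypes the Negative list had the most. Regions 56.0 and 52.1 kb upstream (chr2:105611944-105612863 and chr2:105616274-105616814) were open in all 6 lists. Both had their highest percentile in dHx Negative (81.9 and 80.5). The first was at 72.9 and 74.3 in WT High and dHx High and at 17.0 to 39.1 in the Middle lists and WT Negative. At the outermost start site, chr2:105668297-105668886 was open in WT Negative (47.9), dHx Negative (25.7) and, among the weakest peaks of its list, WT High (6.00). Just upstream, chr2:105666523-105667723 was in all lists except WT High, with its highest percentiles in both Middle lists (66.2 in WT, 64.8 in dHx). Inside the gene, chr2:105680242-105680953 was in both Negative lists alone (60.6 in WT, 25.7 in dHx), as was chr2:105611106-105611410 upstream. The region chr2:105687428-105688389 was in both High and both Negative lists (39.8 to 59.5) and in neither Middle list. The region chr2:105675105-105675692 was in WT Middle and the 3 dHx lists, strongest in dHx High (67.1), and its neighbour chr2:105674435-105674749 was in dHx High alone (50.3). WT Negative alone held chr2:105660665-105661136 (39.8). Elp4, a subunit of the Elongator complex, overlaps the far end of Pax6, and no peak within 100 kb of Pax6 was assigned to another gene.

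Six3 had 9, 2 and 4 peaks in WT High, Middle and Negative and 6, 5 and 5 in the dHx lists. Its 13 regions lay within 37.0 kb of the gene and 7 overlapped it. The strongest peak was that of WT High in chr17:85614333-85615144 (percentile 72.9). The same region was at 29.2 in WT Negative, 19.0 in dHx High and 4.74 to 5.38 in dHx Negative and dHx Middle. Just before the annotated gene, chr17:85612554-85613290 was open in all lists except WT Negative at 6.29 to 33.9. Inside the gene, chr17:85616135-85617500 was in WT High and the 3 dHx lists, and chr17:85617791-85618307 in the 3 WT lists and dHx Negative. Regions open in RFP-positive lists of both genotypes and in no Negative list were chr17:85608684-85609189 (WT High 30.2, dHx Middle 28.7) and the weak chr17:85625000-85625278 (6.00 and 6.29 in the High lists). WT Negative (47.9) and dHx High (6.29) shared chr17:85623374-85623625. In 1 list each were 6 regions, 3 of them in WT High, and the highest of the 6 was chr17:85606547-85606857 in WT Negative (39.8). The Six3 start in the RefSeq table (position 85620834) had no peak over its window in any list.

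Hesx1 had the fewest regions, 4, with 2, 3 and 1 peaks in WT High, Middle and Negative and 3, 2 and 1 in the dHx lists. The region chr14:27005967-27006331, 3.64 kb downstream, was open in all lists except dHx Negative, at 69.0 in dHx Middle and 6.29 to 48.3 in the others. The region over the upstream end of the gene (chr14:26994269-26994719) was in WT High, WT Middle, dHx High and dHx Negative, highest in dHx Negative (54.8). Inside the gene, chr14:27000452-27000732 was in dHx High (31.5) and dHx Middle (54.2) and in no WT list. WT Middle alone held chr14:27013695-27013888 (24.4). Appl1, Il17rd and Asb14 lie within 100 kb, and 50 peaks within that distance of Hesx1 were nearer to another gene.

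Zic1 had 1, 1 and 6 peaks in WT High, Middle and Negative and 0, 2 and 4 in the dHx lists. Its strongest region lay inside the gene (chr9:91361706-91362253), at percentile 89.4 in WT Negative and 81.9 in dHx Negative, with a weak peak in dHx Middle (16.7) and none in the other 3 lists. This region was chosen for mention after its values were seen. Both Negative lists and no RFP-positive list held chr9:91364874-91365471 inside the gene (29.2 in WT, 4.74 in dHx) and chr9:91350342-91351230, 6.83 kb downstream (39.8 and 49.4). WT Negative alone held chr9:91351965-91352321 (47.9) and a weak region 59.2 kb downstream, and dHx Middle alone held chr9:91355232-91355864 (5.38). The single peak of WT High and of WT Middle lay in 1 region 95.9 kb downstream (chr9:91261142-91262189), at 65.6, 76.5 and 65.3 in WT High, Middle and Negative and 4.74 in dHx Negative. Apart from that far region, no RFP-positive WT list and no dHx High list had a peak at Zic1. Zic4, a zinc finger gene read in the opposite direction, overlaps Zic1, and 15 peaks within 100 kb of Zic1 were nearer to another gene. Zic4 itself had 0, 1 and 5 peaks in WT High, Middle and Negative and 2, 1 and 6 in the dHx lists.

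Zic2 had 3, 5 and 4 peaks in WT High, Middle and Negative and 2, 4 and 3 in the dHx lists, in 5 regions that lay within 1.65 kb of the gene. The region over the lower-coordinate end of the gene (chr14:122473320-122475752) was the widest of all 98 and strong in each list, at 80.5, 88.9 and 90.3 in WT High, Middle and Negative and at 83.9, 89.4 and 92.7 in the dHx lists. It was the only member region with peaks in the top 10% of a list, namely of both Negative lists. Inside the gene, chr14:122477350-122477990 was in all lists except dHx Negative (5.47 to 64.8) and chr14:122478564-122479078 in WT Middle (33.9) and WT Negative (47.9) but no dHx list. Past the other end, chr14:122480849-122481733 was in WT High, WT Negative, dHx Middle and dHx Negative (30.2 to 66.8), and chr14:122481976-122483225 in both Middle and both Negative lists (4.74 to 39.1). The latter region also joined a peak that was nearer to another gene. Pcca lies 4.04 kb from Zic2 and Zic5 also within 100 kb, and 66 peaks within 100 kb of Zic2 were nearer to another gene, the most among the members. No strand and no promoter window were given for Zic2 in the tables used here.

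Otx2 had 7, 7 and 5 peaks in WT High, Middle and Negative and 6, 4 and 6 in the dHx lists, in 14 regions. Peaks in RFP-positive lists of both genotypes with none in a Negative list marked 4 of the 14 regions, beside 10.5% of all regions of the series. The first (chr14:48662883-48663532, inside the gene) was in all 4 RFP-positive lists, at 40.9 and 69.3 in WT High and Middle and 62.3 and 69.0 in dHx High and Middle. It was the single member region with that pattern, which 2.08% of all regions showed. The second, chr14:48705143-48705575 at 37.5 kb upstream, had peaks at 69.5 (WT High), 53.9 (WT Middle) and 64.8 (dHx Middle). Another lay 46.5 kb upstream (chr14:48714172-48714524), with peaks at 31.5 and 54.2 in dHx High and Middle and 62.6 in WT Middle. The last, chr14:48664928-48665346 inside the gene, was weak and in both High lists (6.00 in WT, 6.29 in dHx). Between these upstream regions, chr14:48708957-48710128 was in the same 4 RFP-positive lists (24.4 to 59.9) and, weakly, in WT Negative (5.47). WT High alone held chr14:48708012-48708321, at percentile 85.7 the highest Otx2 peak of the RFP-positive lists.

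Other Otx2 regions were shared with the Negative lists or lay in them. The region 33.0 kb upstream (chr14:48700635-48701357) was in all lists except dHx Middle, highest in dHx Negative (69.8) and WT Negative (54.8). The region 1.09 kb downstream (chr14:48654803-48655694) was in both High and both Negative lists (6.29 to 30.2). A region 59.9 kb upstream (chr14:48727519-48727767) was in WT Middle (58.6) and dHx Negative (88.9), and chr14:48720991-48721457 in dHx Negative alone (43.0). WT Middle and dHx Negative also shared chr14:48665871-48666617 inside the gene (14.0 in WT Middle, 25.7 in dHx Negative). Also in Negative lists alone were 3 weaker regions at 17.0 and 25.7.

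**Figure D3:**
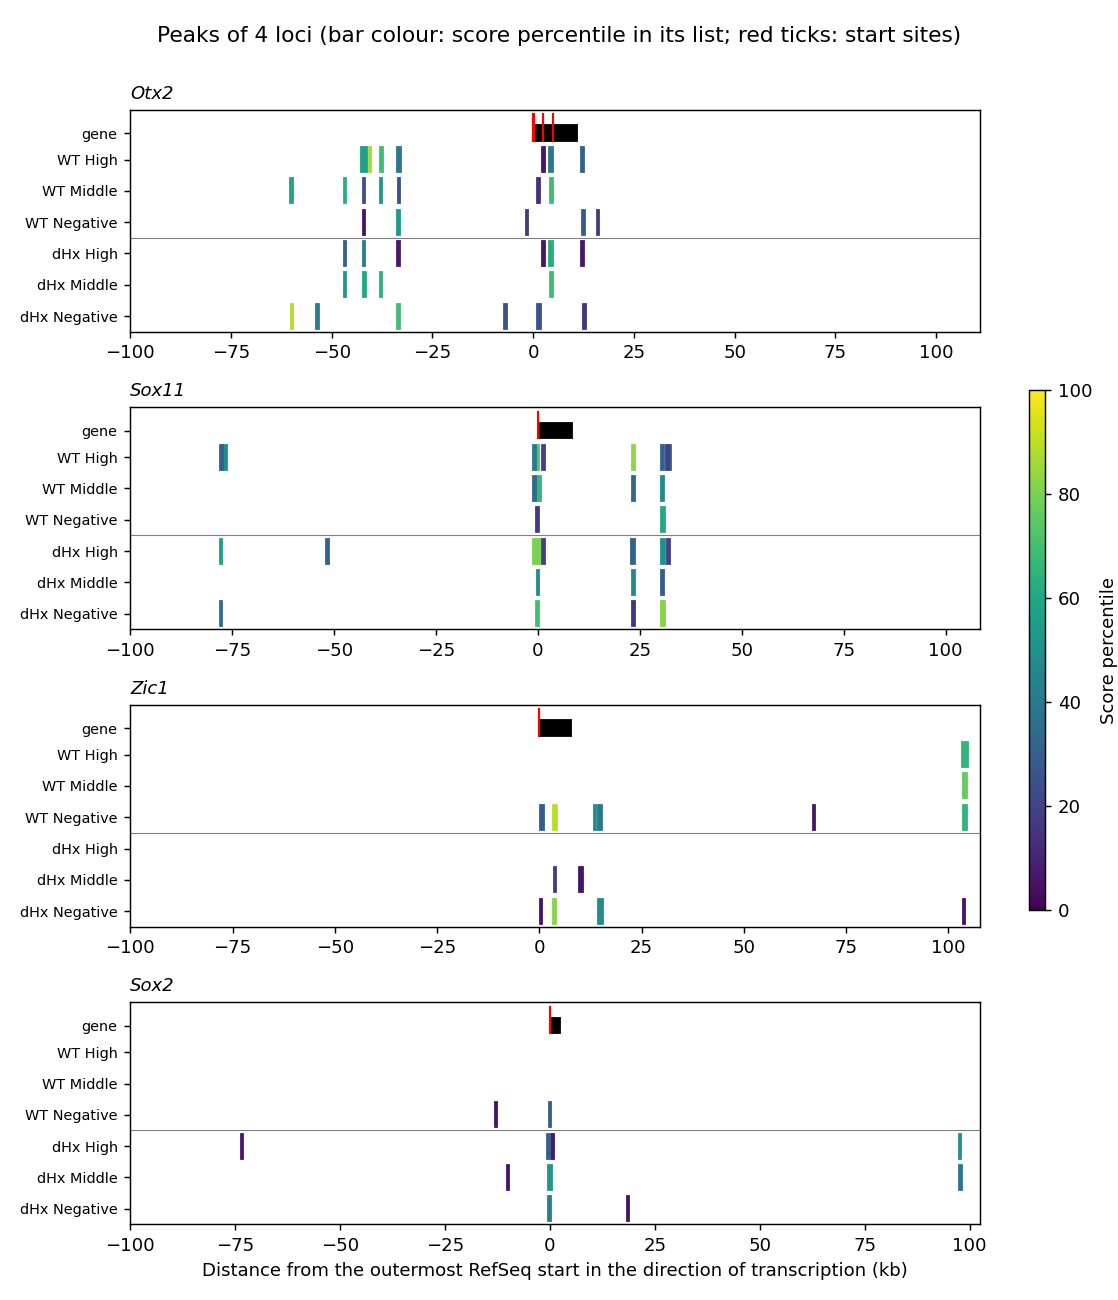
Peaks of Otx2, Sox11, Zic1 and Sox2 by list, placed by distance in kb from the outermost RefSeq start in the direction of transcription. Bars are peaks assigned to the gene, drawn slightly wider than they are, with the score percentile as colour; black marks the gene and red ticks its start sites. The WT High and WT Middle rows of Sox2 are empty, and at Zic1 the peaks near the gene stand in the Negative rows and in dHx Middle.

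Promoter windows were compared next, because the position of the start was not used to choose the peaks. A window ran from 250 bases before to 50 bases after a RefSeq start, and the table held 15 windows for 9 of the 10 members and 21263 for protein-coding genes. A window was called open where any peak overlapped it, whichever gene the peak was nearest to. Of the 15 windows, 5, 2 and 6 were open in the High, Middle and Negative lists of WT and 5, 4 and 6 in those of dHx. In the same order 50.2%, 45.8%, 47.0%, 52.0%, 46.8% and 51.3% of the windows of all protein-coding genes were open. A window open in all 6 lists was found for Sox11 alone, against 34.9% of all windows. These shares count windows and not genes. Otx2 had 4 of the 15 windows and Pax2 3, while the 21263 windows belonged to 17492 genes. Genes with several starts thus weigh more among the members, and shares by gene were not taken.

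The windows of Sox1 and Zic1 were open in both Negative lists and in no RFP-positive list, as were 145 of all windows (0.682%). Over the Sox1 window, the peaks covered 271 of the 300 bases in WT Negative and 296 in dHx Negative. The Zic1 window was covered over 187 and 201 bases by peaks (54.8 and 69.8 percentile) that were nearer to Zic4. The Sox2 window was covered over 199 bases in WT Negative, and over 300, 300 and 217 bases in the High, Middle and Negative lists of dHx. At Otx2, the windows of the inner starts (positions 48662734 and 48665109) were open in RFP-positive lists of both genotypes and in no Negative list, as were 590 of all windows (2.77%). The first of them was overlapped at its edge, over 45 to 102 bases, in all 4 RFP-positive lists (0.470% of all windows), and the second in both High lists. The windows of the outer Otx2 starts were open in no list. No member window was open in 2 or 3 dHx lists and no WT list (1.50% of all windows) or in 2 or 3 WT lists and no dHx list (0.531%). Also open in no list were the first Pax2 window, the second Pax6 window and the windows of Six3 and Hesx1.

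**Figure D4:**
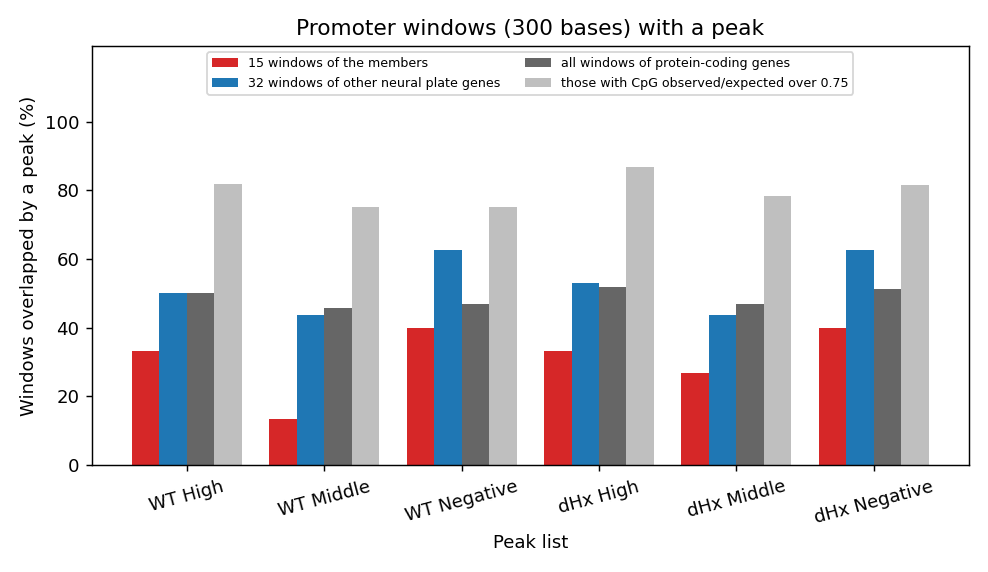
Percent of 300-base promoter windows overlapped by a peak in each list, for the 15 windows of the members, 32 windows of other neural plate genes, all protein-coding genes, and those of all genes with CpG observed/expected over 0.75. The last set is not a like one for the members, since 8 of the 15 windows are over 0.75. Counted by window, the members' bars are the lowest in every list, from 13.3% in WT Middle to 40.0% in both Negative lists. The 15 windows belong to 9 genes, and shares by gene were not taken.

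Base composition is given beside these shares, since promoters rich in CpG were more often open in the series. CpG observed/expected, the number of CpGs relative to that given by the C and G content, had a median of 0.79 over the 15 windows and 0.57 over all windows. It was over 0.75 in 8 of the 15 windows and under 0.4 in none. Of all windows over 0.75, between 75.0% (WT Negative) and 86.8% (dHx High) were open in a list. That class is not a like set for the 15 windows, of which 7 lay from 0.4 to 0.75. Open windows among the 8 over 0.75 were not counted apart. Motifs were searched on either strand of the 300 bases. The forkhead letters TGTTTAC and TGTTTGC were in none of the 15 windows and in 3.01% and 4.58% of all windows. The SOX letters ACAAAG were in 4 windows, of Pax2, Pax6 and Sox2 (16.8% of all windows), and ACAATG in none (11.0%). The E-box letters CANNTG were in 10 of the 15 (69.0% of all windows). These motifs do not contain each other, and a match is a description of the letters alone.

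High was compared with Negative, that is cells with the brightest FoxA2-tagRFP with cells without its signal. In WT, Sox11 and Six3 stood on the High side and Zic1 and Pax6 on the Negative side. Sox11 had 7 of 9 WT High peaks with no WT Negative peak and 0 of 2 in the other direction, and Six3 had 7 of 9 against 2 of 4. The 7 unmatched peaks of Six3 were weak, at percentiles of 6.00 to 30.2, and those of Sox11 were at 18.0 to 82.5. WT High was the longer list. Zic1 had 0 of 1 against 5 of 6, Pax6 1 of 5 against 5 of 9 and Sox2 no peak against 2 of 2. Otx2 had 4 of 7 against 2 of 5, Hesx1 1 of 2 against 0 of 1, Pax2 3 of 7 against 4 of 8, Sox1 3 of 4 in both directions and Zic2 0 of 3 against 1 of 4. Over the 10 loci, 26 of 47 WT High peaks lacked a partner in WT Negative (55.3%, 40.1 to 69.8), beside 49.0% of all WT High peaks. In the other direction it was 24 of 45 (53.3%, 37.9 to 68.3) beside 41.0%. Both intervals hold the background of their lists. More High peaks without a partner than Negative ones were found at 4 members and fewer at 5 (38.8% and 24.7% of all genes with a peak).

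In dHx, Sox11 again stood on the High side, with 3 of 7 dHx High peaks unmatched in dHx Negative against 0 of 4, and Zic1 on the Negative side with no peak against 4 of 4. Sox2 had 3 of 4 unmatched peaks in dHx High and 1 of 2 in dHx Negative, the reverse of its WT order. The unmatched dHx High peaks of Sox2 were at percentiles of 6.29 to 50.3. Its unmatched dHx Negative peak was at 4.74, the lowest score of that list. Pax2 had 2 of 4 against 9 of 11, Pax6 2 of 7 against 4 of 9, Six3 4 of 6 against 3 of 5 and Otx2 4 of 6 in both directions. Hesx1 had 2 of 3 against 0 of 1, Sox1 1 of 1 against 3 of 3 and Zic2 1 of 2 against 2 of 3. The members' shares were 22 of 40 in dHx High (55.0%, 38.5 to 70.7, beside 38.9% of all peaks) and 30 of 48 in dHx Negative (62.5%, 47.4 to 76.0, beside 54.4%). Members with more unmatched High peaks numbered 4 and with more unmatched Negative peaks 5 (23.1% and 39.8% of all genes). The peaks of a locus share their neighbourhood and are not replicates. Among peaks in the upper 50% of scores, the share was 30.0% in WT High (3 of 10, beside 29.5% of all such peaks) and 28.6% in WT Negative (2 of 7, beside 21.9%). In dHx it was 41.7% in High (5 of 12, beside 21.9%) and 25.0% in Negative (3 of 12, beside 32.8%), and the interval held the value of all such peaks in each of these 4 directions. At equal list length the interval excluded it for WT Negative (27 of 45, 60.0%, 44.3 to 74.3, beside 44.3%) and dHx High (25 of 40, 62.5%, 45.8 to 77.3, beside 45.3%), in both cases by less than 1 percentage point. The cut kept 38 of 47 WT High and 28 of 48 dHx Negative member peaks, smaller shares than of those lists as a whole. The part of this in the 2 exclusions was not tested.

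The genotypes were compared at each level to ask which regions differ when FoxA2 lacks the helix. At High RFP, Six3 had 5 of 9 WT peaks with no dHx peak against 1 of 6 in the other direction, Sox1 had 3 of 4 against 0 of 1 and Pax2 3 of 7 against 0 of 4. Sox2 had no WT peak and 4 of 4 dHx peaks without a partner, and Pax6 had 2 of 5 against 4 of 7. The single WT peak of Zic1 had no dHx partner, and dHx High had no Zic1 peak. Unmatched Sox11 peaks were 1 of 9 in WT and 1 of 7 in dHx, those of Otx2 2 of 7 and 1 of 6. Those of Zic2 were 1 of 3 and 0 of 2, and those of Hesx1 0 of 2 and 1 of 3. The members' shares were 18 of 47 (38.3%, 24.5 to 53.6, beside 43.0% of all WT High peaks) and 12 of 40 (30.0%, 16.6 to 46.5, beside 30.6% of all dHx High peaks). These shares are close to those of the lists as a whole. More unmatched WT peaks were found at 6 members and more unmatched dHx peaks at 3 (37.0% and 20.9% of all genes).

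At Middle RFP, the members had 11 of 29 WT peaks without a dHx peak (37.9%, 20.7 to 57.7, beside 43.9%) and 18 of 35 dHx peaks without a WT peak (51.4%, 34.0 to 68.6, beside 30.9%). With all deposited peaks, the latter was the single direction of the 10 in which the interval did not hold the value of the whole list. With both lists cut to equal length by score the share was again 18 of 35, but that of all peaks was 36.4%, which the interval holds. Pax2 with 6 of 7, Six3 with 4 of 5 and Sox2 with 3 of 3 made up most of it, and among the stronger 50% of peaks it was 2 of 11 (18.2%, beside 11.0% of all such peaks). More unmatched WT peaks were found at 4 members and more unmatched dHx peaks at 5 (37.0% and 22.4% of all genes). In the WT to dHx direction Otx2 had 3 of 7 and Hesx1 2 of 3. At Negative RFP, Zic1 had 2 of 6 WT peaks without a dHx peak against 0 of 4, and Pax2 had 4 of 8 against 7 of 11. Sox11 had 0 of 2 against 2 of 4, Pax6 2 of 9 in both directions and Otx2 3 of 5 against 4 of 6. The members' shares were 19 of 45 (42.2%, 27.7 to 57.8, beside 28.8%) and 21 of 48 (43.8%, 29.5 to 58.8, beside 44.5%). Of the 7 WT Negative member peaks in the upper 50% of scores, 0 lacked a dHx Negative peak (beside 11.2% of all such peaks), and of the 12 such peaks of dHx Negative 2 lacked a WT Negative peak (16.7%, beside 20.1%). At equal list length, 27 of 45 WT Negative peaks lacked a dHx Negative peak (60.0%, 44.3 to 74.3, beside 34.9% of all peaks), so here the interval excluded the value of the whole list. The cut kept 29 of 48 dHx Negative member peaks and 39569 of all 50424, a larger share. Possible partners were thus removed more often at the members, and the part of this in the exclusion was not tested. At this level 3 members had more unmatched WT peaks and 4 more unmatched dHx peaks (19.4% and 40.1% of all genes).

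**Figure D5:**
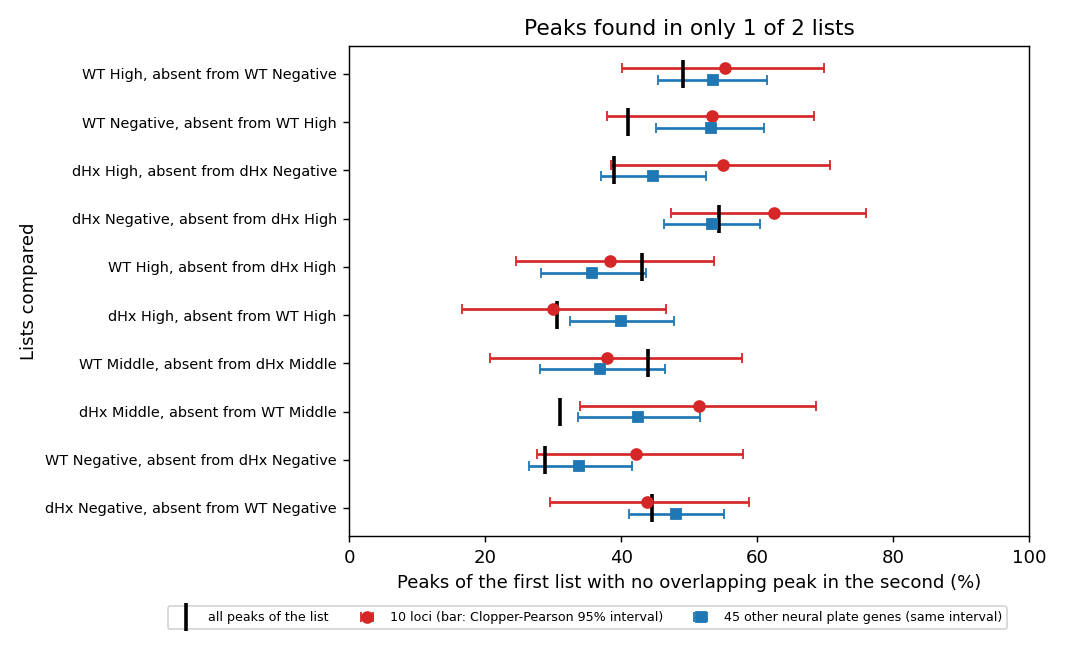
Percent of the peaks of a list with no overlapping peak in a second list, for the 10 loci (circles, with Clopper-Pearson 95% intervals), 45 other neural plate genes (squares) and all peaks of the list (black marks). In 9 of the 10 directions the interval of the 10 loci includes the black mark, and dHx Middle peaks absent from WT Middle are the exception (51.4% against 30.9%, and against 36.4%, inside the interval, at equal list length).

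A further 45 genes of the neural plate and early neural tube, such as Sox3, Pax3, Rax, Lhx5, Gbx2, En1, Irx3 and Olig2, were counted in the same way. They held 157, 114 and 160 peaks in the High, Middle and Negative lists of WT and 168, 125 and 206 in those of dHx. Per 10000 peaks this was 34.4, 23.4, 40.4, 45.2, 32.0 and 40.9, so here too WT Middle was lowest and Middle the lowest level of each genotype. When WT High and WT Negative were compared, their unmatched shares were 53.5% in High (45.4 to 61.5, beside 49.0% of all peaks) and 53.1% in Negative (45.1 to 61.0, beside 41.0%). In dHx they were 44.6% in High (beside 38.9%) and 53.4% in Negative (beside 54.4%). At High RFP 35.7% of their WT peaks had no dHx peak (beside 43.0%), and 39.9% of their dHx peaks had no WT peak (32.4 to 47.7, beside 30.6%). Of the 10 directions their interval excluded the value of the whole list in 3, namely WT Negative against WT High, dHx High against WT High, and dHx Middle against WT Middle (42.4%, 33.6 to 51.6, beside 30.9%). In each of the 3 the first list was the shorter. No share at equal list length is given for these genes, and the part of list length was not tested. Genes with more unmatched peaks in dHx High than in WT High numbered 22, against 13 with more in WT High and 10 equal (20.9% and 37.0% of all genes). Among these genes Tcf7l1, a repressor of Wnt targets, had 14 peaks in WT High and 6 in WT Negative. Between WT High and dHx High, Tcf7l1 had 14 and 11 peaks, Sox21, an HMG-box factor, 2 and 5, Foxb1, a forkhead factor, 9 and 12, and Lmx1b, a LIM homeobox factor, 13 and 16.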

How the data were processed

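Chromatin accessibility was measured in 12 ATAC-seq samples of 6 groups. The authors deposited 1 peak list per group on mm10. MACS2 and the aligner STAR 2.5.2a are named in the submitters' processing notes, whose settings and order are not stated here, and the peak names in the files mark each list as pooled. The deposited score was read as the caller's −log10 p or −log10 q (which of them is not stated), from its values alone, since the column has no name. Scores grow with depth, which is not given, and served only to rank peaks within a list.

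Lines with the same start and end were merged and the highest score was kept. Peaks were assigned to the nearest of 21887 protein-coding genes (RefSeq, GRCm38.p6) within 100 kb. Shared peaks overlapped by at least 1 bp, and touching or overlapping peaks of the 6 lists were joined into regions. Promoter windows came from RefSeq and held 9 of the 10 members, Zic2 being the exception, and 31 of the 45 other genes. Letters outside these windows were not used here. No fit with a replicate block was run, because each group has 1 peak list and no value per sample. Python 3.11.15, pandas 2.3.3 and SciPy 1.17.1 were used. The overlap and assignment steps were tested on simulated data, and the unmatched peak counts over whole lists equalled those of bedtools 2.31.1 in all 10 directions.

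Single regions were named where they were in at least 4 lists, held a peak in the top 10% of a list, or ranked highest at their gene among regions absent from the Negative, the RFP-positive, the WT or the dHx lists. Other regions named were chosen after their values were seen. Of the other neural plate genes, those with the largest and smallest differences in peak number were named, and 1 of them is not reported here. The members and lists were chosen with earlier results of these data known. Alternatives changed the overlap, list length, score threshold, distance and window.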

Additional observations from a re-analysis of the deposited data

Results flagged for a closer look

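At 4 members the difference in peak number between lists changed sign between groups, with at least 2 peaks in each direction. Smaller changes of sign, such as those at Otx2, Zic1 and Hesx1, were not flagged. The share of all genes with such changes is not given here. Each list is 1 pool, so none of these changes was tested. Sox2 had 2 fewer peaks in High than in Negative in WT (a difference of -2) and 2 more in dHx. This change rests in part on the weakest peaks. Some Sox2 peaks of dHx High (percentile 6.29), WT Negative (5.47) and dHx Negative (4.74) had the lowest score of their list. Sox11 had 2 more peaks in WT than in dHx at High RFP, 1 more at Middle and a difference of -2 at Negative. Pax2 had 3 more WT peaks at High, with differences of -5 at Middle and -3 at Negative. Six3 had 3 more at High, with differences of -3 at Middle and -1 at Negative. In list length, WT was longer than dHx at High and Middle and shorter at Negative (45689 against 37129, 48761 against 39121 and 39569 against 50424 peaks), and the part of list length in these changes was not tested.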

How the results depend on the processing

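No paired analysis was possible because each group is given as 1 list of pooled samples, and for the same reason no sample was left out. Requiring an overlap of 50% of the shorter peak, taking every peak within 100 kb of a member, or leaving out peaks within 1 kb of a start left the 10 unmatched shares within their intervals, as did a limit of 50 kb. With lists cut to equal length by score (ties broken at random), the share moved to 46.4% (13 of 28, beside 45.1% of all peaks) for dHx Negative against dHx High and to 60.0% (27 of 45, beside 34.9%) for WT Negative against dHx Negative, and the other 8 stayed within their intervals. At equal length the interval excluded the value of all peaks in 3 directions instead of 1, namely WT Negative against dHx Negative, WT Negative against WT High (60.0%, beside 44.3%) and dHx High against dHx Negative (62.5%, beside 45.3%), and no longer dHx Middle against WT Middle. In each of the 3, the cut had taken a larger share of the member peaks than of all peaks from the longer list. Counting peaks in the upper 50% of scores, with all such peaks beside, it moved to 30.0% (29.5%) for WT High against WT Negative, 28.6% (21.9%) for the reverse, 25.0% (32.8%) for dHx Negative against dHx High, 18.2% (11.0%) for dHx Middle against WT Middle, 0% (11.2%) for WT Negative against dHx Negative and 16.7% (20.1%) for the reverse, and all 10 intervals held the value of all such peaks. The number of regions became 156 with every region within 100 kb of a member (17 in all 6 lists) and 33 with the upper 50% of scores (1 in all 6 lists), and 3 of the 77 regions within 50 kb were in all 6 lists. With the upper 50% of scores, open windows numbered 1 in WT High, 1 in WT Negative, and 2, 2 and 3 in High, Middle and Negative of dHx. For these region counts, and for windows at this score limit, the shares over the whole series are not given here. The members therefore cannot be set against the series at these settings. With any peak within 1 kb of a start, open windows numbered 6, 5 and 7 in High, Middle and Negative of WT. In dHx they numbered 7, 5 and 9. In WT Middle this was 33.3% of the 15 windows, beside 52.1% of all windows. In dHx Negative it was 60.0%, beside 57.5%, so in that list the members were no longer below all protein-coding genes. In every other list their share stayed below that of all windows. Peaks below the median score carry most counts, and a peak absent from a list may lie below its threshold. The unknown read depth limits every comparison.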
